A study of Mus musculus with 7 samples.

Results

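Neuropeptide Y and its receptors were followed as 4 genes of the 25871 cellular genes counted in this study of mouse cortex. The 4 members were taken by symbol, Npy for the peptide and Npy1r, Npy2r and Npy5r for its receptors, and the rule used no measured value. They were read in 2 assays, single-nucleus RNA sequencing (snRNA-Seq) and ATAC-Seq, a transposase assay that counts reads from accessible chromatin. The snRNA-Seq sample held nuclei of the primary visual cortex (V1) of C57BL/6J mice, labelled as male and 6 to 10 weeks old, that had been injected with the PESCA library, a pool of adeno-associated viruses (AAV9) in which candidate enhancers drive barcoded transcripts. It was spread over 10 droplet libraries that the files number as 2 sets of 5, and the design text gives 5 libraries per animal without saying which animal gave which. The 6 ATAC-Seq samples held nuclei of whole cortex from uninjected mice of 6 to 12 weeks, 2 samples for each of 3 interneuron types, somatostatin (SST), parvalbumin (PV) and vasoactive intestinal peptide (VIP). Those nuclei were isolated by INTACT, through the tagged nuclear membrane protein SUN1-2xsfGFP-6xMYC switched on by Sst-IRES-Cre, Pv-Cre or Vip-IRES-Cre, so each type is the set of nuclei in which its Cre driver had been active. The sample labels give male mice, whereas the series' design text gives both sexes. By the study's methods each ATAC-Seq sample held the nuclei of 1 animal, 2 animals a type. The p-values below rest on a spread between animals that was estimated jointly for the 3 types and drawn towards that of other regions.

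Neuropeptide Y is a short amidated peptide released from dense core vesicles, and in the cortex it is made by GABAergic interneurons. It is cut from a precursor by prohormone convertases, trimmed by carboxypeptidase E and amidated by peptidylglycine alpha-amidating monooxygenase. Y1, Y2 and Y5 are G protein-coupled receptors that couple to inhibitory G proteins. Y1 and Y5 are usually described as postsynaptic, and Y2 as a presynaptic receptor that limits transmitter release, with a preference for peptide fragments that lack the first residues.

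In GRCm38, the build of the files, Npy lies on chromosome 6 at chr6:49822710-49829507 on the plus strand, and Npy2r on chromosome 3 at chr3:82538383-82548084 on the minus strand. Npy1r (chr8:66697192-66706792, plus strand) and Npy5r (chr8:66679965-66688128, minus strand) are neighbours that are transcribed away from each other, with start sites 9064 bases apart on chromosome 8. The 250 bases before each start are shown because the ATAC-Seq comparison turns on the regions that contain them. They were read 5′ to 3′ on the strand of the gene from the RefSeq genome of this build, before the outermost start given by GENCODE or RefSeq, at chr6:49822460-49822709 (Npy), chr8:66696942-66697191 (Npy1r), chr3:82548086-82548335 (Npy2r) and chr8:66688129-66688378 (Npy5r). Capitals mark matches to the motifs searched on both strands, of which the first was the cAMP response element TGACGTCA. The AP-1 site was searched as TGANTCA, the E-box as CACGTG, the GC box as the letters GGGCGG, and the TATA box as the letters TATAAA. No motif overlapped another in these windows.
Npy promoter: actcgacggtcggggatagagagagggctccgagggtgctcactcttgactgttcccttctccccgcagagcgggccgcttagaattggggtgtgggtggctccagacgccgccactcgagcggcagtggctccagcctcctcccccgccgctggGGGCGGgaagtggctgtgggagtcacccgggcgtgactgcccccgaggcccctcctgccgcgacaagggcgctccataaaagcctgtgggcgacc
Npy1r promoter: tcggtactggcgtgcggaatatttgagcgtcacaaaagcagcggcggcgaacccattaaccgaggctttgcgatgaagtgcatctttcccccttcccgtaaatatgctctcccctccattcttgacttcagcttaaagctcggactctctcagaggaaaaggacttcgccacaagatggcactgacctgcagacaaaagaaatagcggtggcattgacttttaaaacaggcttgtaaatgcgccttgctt
Npy2r promoter: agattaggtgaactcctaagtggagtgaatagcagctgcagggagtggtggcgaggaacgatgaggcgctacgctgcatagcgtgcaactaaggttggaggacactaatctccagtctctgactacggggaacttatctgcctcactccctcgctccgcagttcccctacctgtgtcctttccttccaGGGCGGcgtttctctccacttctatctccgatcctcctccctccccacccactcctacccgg
Npy5r promoter: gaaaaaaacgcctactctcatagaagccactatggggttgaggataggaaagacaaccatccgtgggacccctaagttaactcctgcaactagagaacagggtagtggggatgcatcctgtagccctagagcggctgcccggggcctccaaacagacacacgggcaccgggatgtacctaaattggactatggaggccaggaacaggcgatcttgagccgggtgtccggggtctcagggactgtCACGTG
The GC box matched in Npy and in Npy2r and is found in 32.7% of the 32851 RefSeq windows of this length. The E-box matched in Npy5r, where its last base adjoins the start, and is found in 6.02% of the windows. No listed motif matched in Npy1r, and no member had the other 3 motifs, which are found in 1.55% (cAMP response element), 6.75% (AP-1 site) and 12.4% (TATA box) of the windows. The GENCODE and RefSeq starts of Npy1r lie 230 bases apart, so the window shown for it is mostly not its RefSeq window. The Npy window had the highest GC content of the 4 members, 69.2%, against 49.6% for Npy1r, 56.8% for Npy2r and 56.0% for Npy5r, and against a median of 52.4% over all windows.

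Each transcript in the snRNA-Seq files is counted by its unique molecular identifier (UMI). Of 47348 barcodes, 32335 passed a minimum of 200 UMIs of cellular genes and were taken as nuclei, with 2496224 to 3041931 UMIs a library. A total of 21937 nuclei were placed in 17 classes by gates on marker UMIs, with at least 2 UMIs of a class list and at least 2 times those of any other list, and none of the 4 members was on a list. Of the 10398 nuclei without a class, 9274 held fewer than 2 UMIs of every list and 1124 had mixed lists. Levels are UMIs summed over a class per 10000 non-viral UMIs, with an exact Poisson 95% interval on the sum, and shares have an exact binomial (Clopper-Pearson) 95% interval, both for counting error only. Because the labels give 1 sample, the differences between classes carry no test, and the range over the 10 libraries is given instead. A total of 11945 kept nuclei carry a barcode name that also occurs in another library.

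Npy UMIs were concentrated in interneurons. The 2812 nuclei gated as interneurons held 6189 of the 7281 Npy UMIs (85.0%). LAMP5/NDNF nuclei, the class that includes neurogliaform cells and was gated here by Lamp5, Ndnf, Cplx3, Kit and Sv2c, had the highest level, 104.7 per 10000 (95% interval 101.1 to 108.5, 3073 UMIs in 281 nuclei). Over the 10 libraries the lowest value in this class was 50.4, the median 105.5 and the highest 135.0. SST nuclei came next at 26.8 (25.8 to 27.99, 2255 UMIs in 857 nuclei), with a lowest value of 16.0, a median of 24.5 and a highest of 44.7. The ranges of the 2 classes did not overlap, LAMP5/NDNF nuclei were higher in 10 of 10 libraries, and the ratio of the pooled levels was 3.90. With the class gated by Ndnf alone, the level was 65.9. These 281 LAMP5/NDNF nuclei held 42.2% of all Npy UMIs, and the 857 SST nuclei 31.0%.

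VIP and PV nuclei held less Npy. The level was 6.22 per 10000 in VIP nuclei (5.35 to 7.19, 182 UMIs in 385 nuclei), with libraries from 1.92 to 14.8 and a median of 4.69. In PV nuclei it was 2.19 (1.81 to 2.63, 117 UMIs in 386 nuclei), with libraries from 0.464 to 8.05 and a median of 1.63. SST nuclei were above VIP nuclei in 10 of 10 libraries without overlap, by 4.32-fold on the pooled levels, while the VIP and PV ranges overlapped, with VIP higher in 9 of 10. The PV level differed between the library sets, at 3.83 in the first and 1.20 in the second, and without library 1-2, which had the highest PV value, it was 1.72. The same sets gave 30.4 and 23.5 in SST nuclei, 7.65 and 4.70 in VIP nuclei, and 118.3 and 91.4 in LAMP5/NDNF nuclei, so the order of these 4 classes was the same in each set. The 903 interneurons without a subclass had 7.31 (6.72 to 7.94).

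Excitatory nuclei as a whole had 0.150 Npy UMIs per 10000 (0.132 to 0.170, 252 UMIs in 14736 nuclei), with libraries from 0.114 to 0.253. PV nuclei were above them in 10 of 10 libraries with no overlap, by 14.6-fold. Among the layer classes the level ran from 0 UMIs in 74 near-projecting nuclei, which allows up to 0.411 per 10000, to 0.182 in layer 5 (L5), and the library ranges of neighbouring layers overlapped. Vascular nuclei had 0.0963, astrocytes 0.399 and oligodendrocytes 0.626. In oligodendrocytes 1 nucleus held 24 of the 47 UMIs, 51.1% of them. Barcodes with 200 or fewer UMIs, which hold free RNA and poorly captured nuclei, had 2.21 Npy UMIs per 10000, close to the 2.56 over all kept nuclei and to the 2.19 of PV nuclei, so the PV level by itself is no higher than that of these barcodes. The excitatory and vascular levels were far below it.

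**Figure D1:**
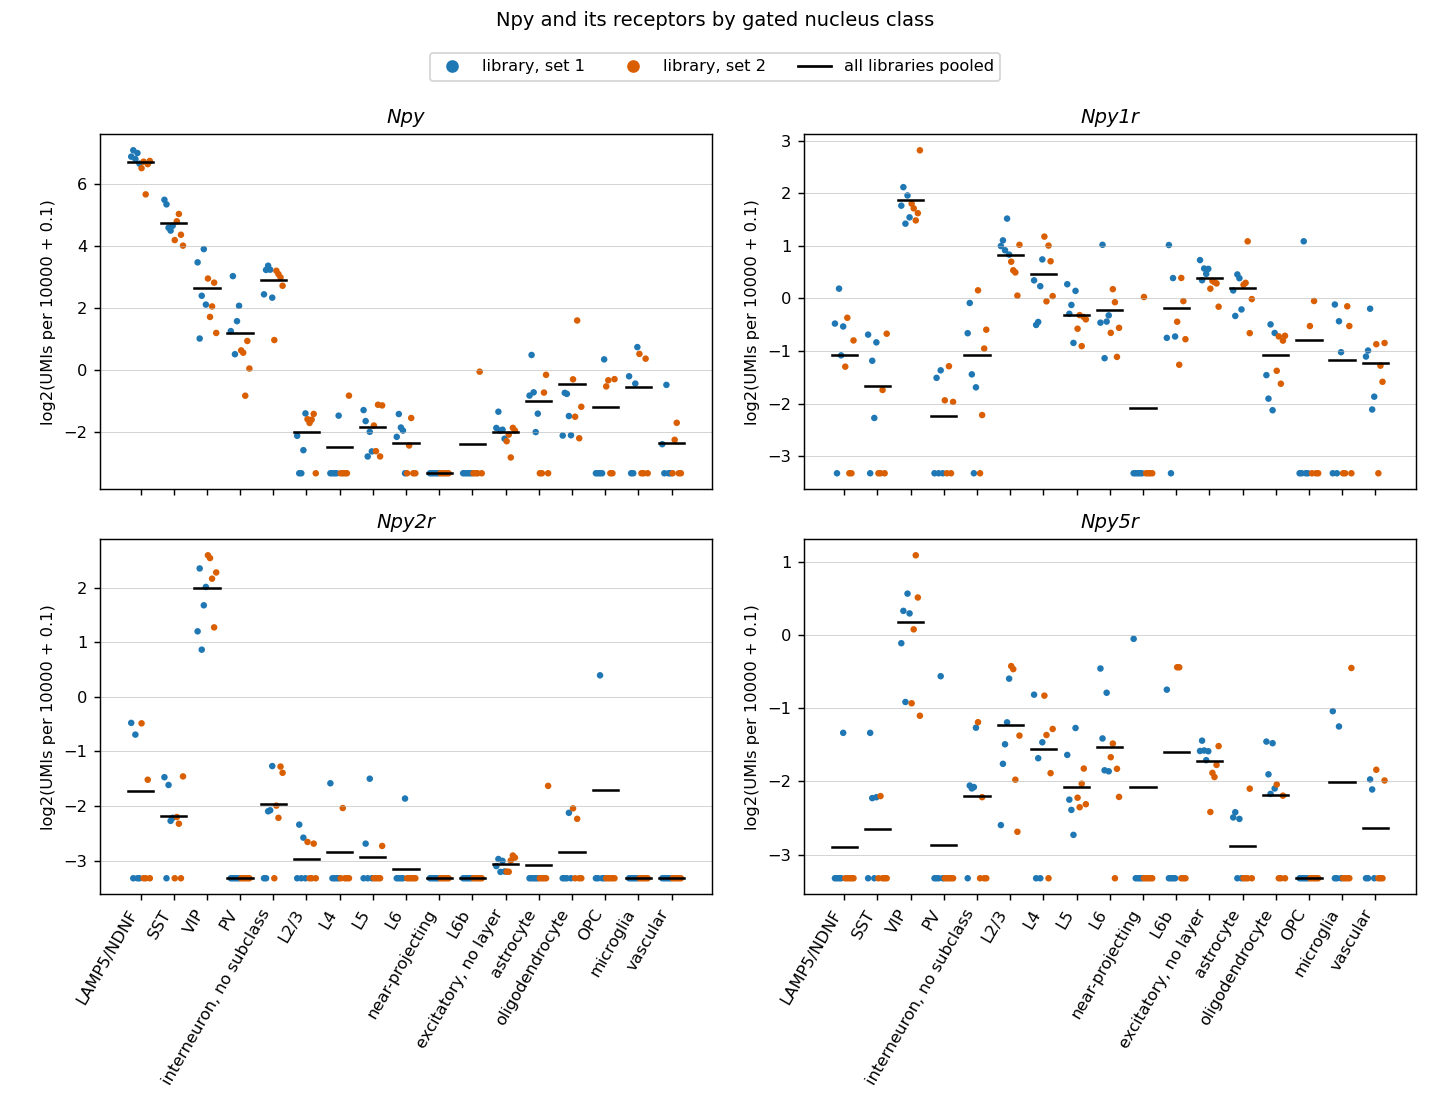
Levels of Npy, Npy1r, Npy2r and Npy5r in 17 gated classes, on a log2 axis of UMIs per 10000 non-viral UMIs with a pseudocount of 0.1. Each point is 1 of the 10 libraries, coloured by library set, and each black line is the level with all libraries pooled. LAMP5/NDNF and SST nuclei stand above all other classes for Npy, and VIP nuclei stand above all others for Npy2r. Npy1r and Npy5r are spread over VIP and excitatory classes, and Npy1r is also found in astrocytes.

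The share of nuclei with a Npy UMI followed the same order. It was 75.4% in LAMP5/NDNF nuclei (70.0 to 80.4%, median depth 964 UMIs), 52.7% in SST nuclei (49.3 to 56.1%, median 835), 13.8% in VIP nuclei (10.5 to 17.6%, median 627) and 10.4% in PV nuclei (7.51 to 13.8%, median 1314). Excitatory nuclei, which should lack the peptide, had 1.24% at a median of 1033 UMIs, and vascular nuclei 0.923% at 1138. Depth sets a share of this kind, so each nucleus was also thinned to 300 UMIs, leaving out shallower nuclei. The shares then were 66.8% (275 LAMP5/NDNF nuclei), 36.3% (753 SST), 10.0% (340 VIP), 4.35% (378 PV) and 0.404% (13956 excitatory). The order of the classes stayed as it was.

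**Figure D2:**
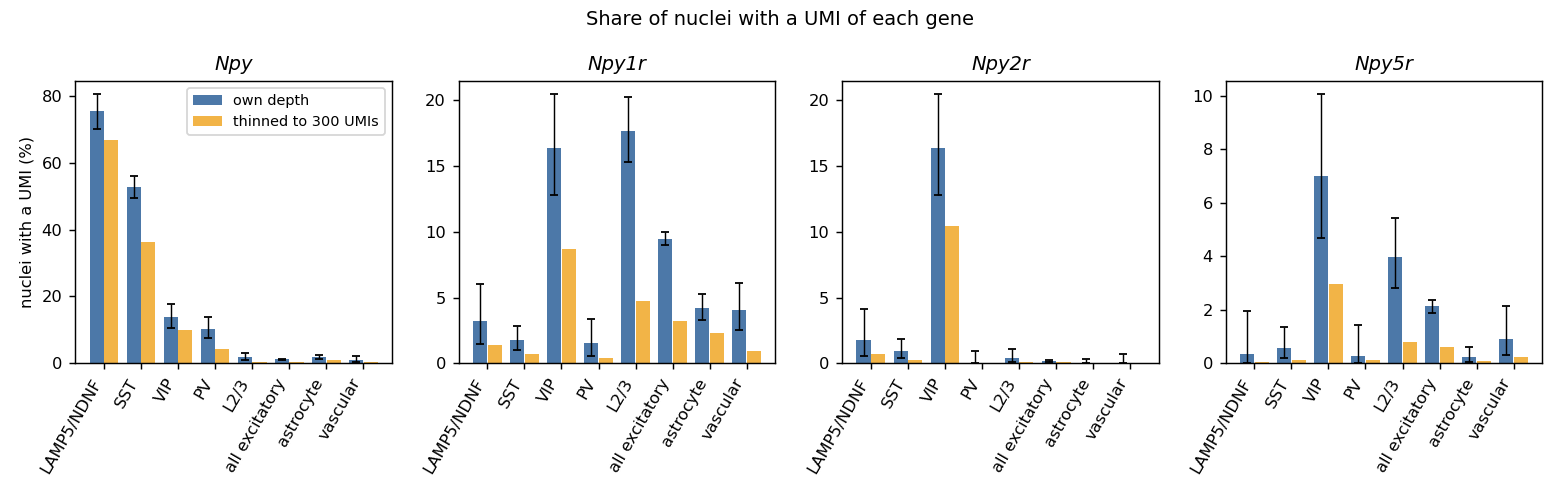
Share of nuclei with at least 1 UMI of each gene in 8 classes, in percent, at the nuclei's own depth (blue, with exact binomial 95% intervals) and after thinning to 300 UMIs (yellow). For Npy the thinned share is 66.8% in LAMP5/NDNF nuclei and 36.3% in SST nuclei, and for Npy2r it is 10.4% in VIP nuclei, while the other classes have thinned Npy2r shares of at most 0.673%.

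Within the classes Npy was unevenly spread. In LAMP5/NDNF nuclei 129 of 281 (45.9%) held 10 or more Npy UMIs, and 69 (24.6%) held none. In SST nuclei 50 of 857 (5.83%) held 10 or more and 405 (47.3%) held none, and the 10% of nuclei with the most Npy accounted for 53.8% of the UMIs of the class. PV nuclei had 2 nuclei with 10 or more Npy UMIs and VIP nuclei had 3.

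**Figure D3:**
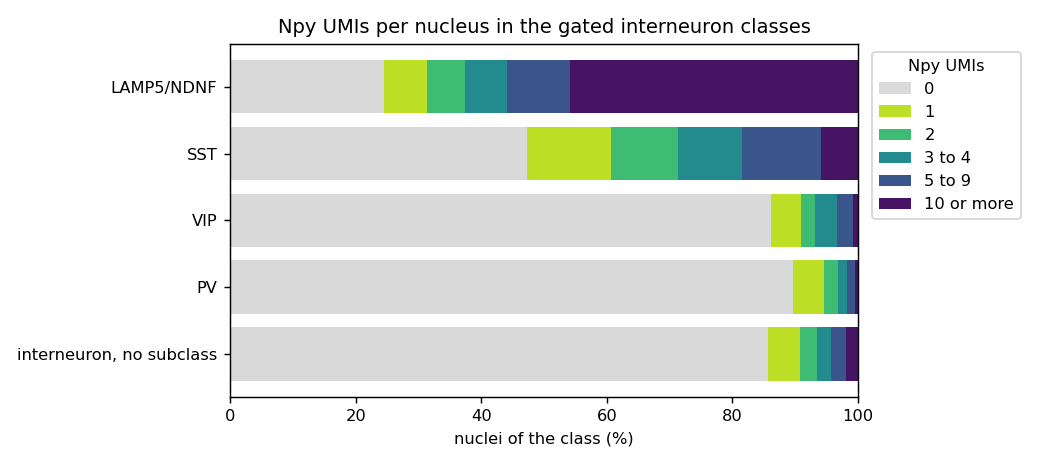
Nuclei of 5 interneuron classes by the number of Npy UMIs they hold, as a percentage of the class. LAMP5/NDNF nuclei with 10 or more UMIs make up 45.9% of their class, against 5.83% in SST nuclei, while 86.2% of VIP and 89.6% of PV nuclei hold none.

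Nuclei inside the gates could be divided further by single genes. Among SST nuclei, the 15 with a UMI of Chodl, Nos1 or Tacr1, genes that mark long-range projecting SST cells, had 147.0 Npy UMIs per 10000 (129.0 to 166.8) at a median depth of 927, against 24.5 (23.4 to 25.6) in the other 842 at 834.5. The 11 nuclei with a Chodl UMI carried 220 of those 241 UMIs. Among LAMP5/NDNF nuclei, the 242 with a UMI of Kit, a receptor tyrosine kinase that marks neurogliaform and related cells, had 122.3 (118.0 to 126.8), and the 39 without one had 9.61 (6.98 to 12.9), at median depths of 963.5 and 985. Nuclei with an Ndnf UMI had a lower level, 63.4 (57.6 to 69.6, 59 nuclei), than nuclei without one, 117.5 (113.1 to 122.1, 222 nuclei). Among VIP nuclei, the 138 with a UMI of Tac2, which encodes neurokinin B, had 12.9 (10.9 to 15.1) and the 68 with a UMI of Calb2, the calretinin gene, had 2.11 (1.15 to 3.54). Some of these sets share nuclei with one another. Kit, Ndnf, Tac2 and Calb2 also served as gate genes, whereas Chodl, Nos1 and Tacr1 did not. The sets are described without a test.

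Markers of other subclasses were present in VIP and PV nuclei that held Npy. Of 53 VIP nuclei with a Npy UMI, 69.8% also had a UMI of the LAMP5/NDNF list, against 48.8% of the other 332, whereas a UMI of the SST list was seen in 1.89% and 6.93%. The median depths were 794 and 607.5 UMIs, and per 10000 UMIs the LAMP5/NDNF list had 20.4 and 12.35. The 153 VIP nuclei with no UMI of another subclass list had a Npy level of 2.91 (1.93 to 4.204). Of 40 PV nuclei with a Npy UMI, 25.0% had a UMI of the SST list, against 13.01% of the other 346, and 12.5% against 2.89% had a UMI of the LAMP5/NDNF list, with 1.69 against 1.05 UMIs per 10000 of the SST list and 0.843 against 0.211 of the LAMP5/NDNF list. The 314 PV nuclei with no UMI of another subclass list had 1.45 (1.11 to 1.86). No doublet caller was used, and the part of mixed droplets in these levels was not tested.

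Npy1r, the Y1 receptor gene, had most of its UMIs in excitatory nuclei and its highest level in VIP nuclei. Excitatory nuclei, 14736 of the 32335 kept nuclei, also held most UMIs of all genes. Their share of the Npy1r UMIs is therefore no enrichment by itself. VIP nuclei had the highest level, 3.55 UMIs per 10000 (2.90 to 4.30, 104 UMIs), with libraries from 2.58 to 6.94 and a median of 3.24. Excitatory nuclei as a whole had 1.15 (1.10 to 1.20), with libraries from 0.866 to 1.45, and held 1938 of the 2926 Npy1r UMIs (66.2%). The ranges did not overlap, and VIP nuclei were 3.08-fold higher. Against layer 2/3 nuclei (L2/3), the highest of the excitatory classes, VIP nuclei were 2.11-fold higher, in 10 of 10 libraries but with overlapping ranges. SST nuclei, at 0.214 (0.127 to 0.339, 18 UMIs), and PV nuclei, at 0.112 (0.0412 to 0.245, 6 UMIs), were below both, and the SST and excitatory ranges did not overlap. LAMP5/NDNF nuclei, which had the most Npy, had 0.375 Npy1r (0.187 to 0.671).

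Excitatory layers differed in Npy1r by their pooled levels, with overlapping libraries. L2/3 nuclei had 1.68 (1.48 to 1.91, 243 UMIs in 956 nuclei), layer 4 (L4) 1.27 (0.979 to 1.62), layer 6 (L6) 0.759 (0.582 to 0.973) and layer 5 0.701 (0.596 to 0.820). L2/3 was above L5 in 10 of 10 libraries by 2.40-fold and above L6 in 10 of 10 by 2.22-fold, although the lowest L2/3 library was below the highest of each. L2/3 and L4 were not separated, with L2/3 higher in 7 of 10. A Npy1r UMI was seen in 17.7% of L2/3 nuclei (15.3 to 20.2%, median depth 1391) and in 16.4% of VIP nuclei (12.8 to 20.4%, median depth 627), and at 300 UMIs these shares were 4.71% and 8.68%. PV nuclei, the deepest of the interneuron classes, had 1.55%.

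Astrocytes also held Npy1r, at 1.05 per 10000 (0.874 to 1.26, 119 UMIs in 1650 nuclei), with libraries from 0.533 to 2.02. Other glial and vascular classes were at 0.325 (vascular) to 0.479 (OPC, oligodendrocyte precursor cells), and astrocytes were above oligodendrocytes, at 0.373, in 10 of 10 libraries with overlapping ranges. UMIs of the excitatory marker list were fewer in astrocytes (5.21 per 10000) than in oligodendrocytes (10.3) and microglia (7.38) and more frequent than in vascular nuclei (2.84), whereas excitatory nuclei without a layer had 44.1. Because this list was also a gate, these levels depend in part on the gates themselves. A single library, 2-3, gave the highest astrocyte value, and without it the level was 0.982. The share of astrocytes with a Npy1r UMI was 4.18% at a median of 401.5 UMIs, and 2.32% after thinning, against 3.24% in excitatory and 0.979% in oligodendrocyte nuclei after thinning. Barcodes with 200 or fewer UMIs had 0.923 Npy1r UMIs per 10000 (0.789 to 1.07), close to the levels of astrocytes and of excitatory nuclei as a whole and above those of L5 and L6.

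Npy2r, the Y2 receptor gene, was found mainly in VIP nuclei. VIP nuclei had 3.86 UMIs per 10000 (3.18 to 4.64, 113 UMIs), with libraries from 1.72 to 5.93 and a median of 4.16, and held 54.9% of the 206 Npy2r UMIs. With the gates limited to nuclei without a UMI of any other list, the VIP level was 7.75. Interneurons other than VIP nuclei were far lower, at 0.205 in LAMP5/NDNF nuclei (0.0751 to 0.445, 6 UMIs) and 0.119 in SST nuclei (0.0571 to 0.219, 10 UMIs). No library of either class reached the lowest VIP library, and the ratios of pooled levels were 18.9 and 32.4. PV nuclei had 0 UMIs. A floor of 3 counts over that class is 0.0562 per 10000, or 0.777% of nuclei with a UMI, which is no limit on nuclei that express the gene. The VIP level was 68.7-fold that floor, which is no lower bound, since the exact 95% upper limit of the PV level was 0.0691. Excitatory nuclei had 0.0214 (0.0150 to 0.0296, 36 UMIs), and barcodes with 200 or fewer UMIs had 0.0769. A Npy2r UMI was found in 16.4% of VIP nuclei, 0.934% of SST nuclei and 0.190% of excitatory nuclei.

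Npy5r, the Y5 receptor gene, had 538 UMIs in all. The order resembled that of Npy1r, its neighbour on chromosome 8, with 1.03 per 10000 in VIP nuclei (0.691 to 1.46, 30 UMIs) and 0.207 in excitatory nuclei (0.186 to 0.230, 349 UMIs). Libraries ran from 0.365 to 2.02 in VIP nuclei and from 0.143 to 0.259 in excitatory nuclei, without overlap, and the ratio was 4.94. Against L2/3 nuclei VIP nuclei were 3.15-fold higher, in 9 of 10 libraries and with overlapping ranges. Barcodes with 200 or fewer UMIs had 0.154 (0.102 to 0.222), an interval that overlaps that of excitatory nuclei. L2/3 nuclei had 0.326, L6 0.245, L4 0.238 and L5 0.138, and their ranges overlapped, with L2/3 above L5 in 8 of 10 libraries. SST nuclei had 5 UMIs, PV nuclei 2, LAMP5/NDNF nuclei 1, and astrocytes 4 (0.0355 per 10000, 0.00966 to 0.0908). Npy5r was thus close to the floor of 3 counts in astrocytes, where Npy1r was not. The astrocyte level of Npy1r was, however, close to that of barcodes with 200 or fewer UMIs. Over the 17 classes Pearson's r of the log2 levels was 0.728 between Npy1r and Npy5r, 0.488 between Npy1r and Npy2r, 0.484 between Npy2r and Npy5r, and 0.525 between Npy and Npy2r, all classes coming from the same libraries. For Npy the r with Npy1r was -0.168 and with Npy5r -0.159.

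Receptors and peptide could be read in the same VIP nuclei, where all 4 genes were detected. Of the 63 VIP nuclei with a Npy1r UMI, 17 (27.0%, 16.6 to 39.6%) also had a Npy2r UMI, against 46 of 322 without one (14.3%, 10.6 to 18.6%). The median depths were 791 and 592 UMIs, and at 300 UMIs the shares were 15.1% and 9.38%. VIP nuclei with a Npy UMI had a Npy2r level of 2.00 (0.960 to 3.68) and those without 4.24 (3.46 to 5.14), and their Npy1r levels were 3.604 (2.14 to 5.70) and 3.54 (2.83 to 4.37). Npy2r was 1.28 (0.717 to 2.11) in VIP nuclei with a Tac2 UMI and 4.07 (2.68 to 5.92) in those with a Calb2 UMI, the reverse of the order for Npy. In SST nuclei the 10 Npy2r UMIs were all in nuclei with a Npy UMI, which also had the greater depth, 1021.5 against 639.0 UMIs.

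The genes whose levels over the 17 classes were most like each member were found by Pearson's r of log2 levels, with no p because the classes share libraries and depth. For Npy they were Grin2d (0.918), which encodes an NMDA receptor subunit, Dlx1 (0.911), Pnoc (0.909), the prepronociceptin gene, Slc32a1 (0.908), the vesicular GABA transporter, and Gm14204 (0.907). Dlx1 and Slc32a1 were on the gate lists. For Npy2r they were Tac2 (0.943) and Vip (0.927), both on the VIP list, Asic4 (0.936), Crh (0.917), which encodes corticotropin-releasing hormone, and Htr3a (0.910), a serotonin receptor subunit that marks the wider group of interneurons that includes VIP cells. The r values were lower for Npy1r, with Plekha4 (0.794), Adra2c (0.783), Patj (0.774), Epor (0.770) and Gabra2 (0.761), and for Npy5r, with Itpkc (0.811), Fam78b (0.768), Gm2824 (0.755) and Atf2 (0.750).

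Other genes of the system were taken from a list of 14. The related peptide genes Pyy and Ppy had 7 and 15 UMIs in all kept nuclei, and the remaining receptor genes Npy4r and Npy6r had 10 and 15, too few to compare classes. Among the peptide-processing genes, Pcsk1 and Pcsk2 encode prohormone convertases, and Pcsk2 had 10.8 UMIs per 10000 in excitatory nuclei, 3.92 in LAMP5/NDNF nuclei and 2.49 in SST nuclei. Pcsk1 was low, at 0.0341 in LAMP5/NDNF nuclei (1 UMI), 0.0834 in SST nuclei and 0.444 in VIP nuclei. Cpe, the carboxypeptidase gene, was higher in astrocytes (42.2) than in LAMP5/NDNF (10.1) or SST (9.41) nuclei. Pam, the amidating enzyme, had 4.37 in VIP, 3.19 in SST, 2.18 in LAMP5/NDNF and 1.19 in excitatory nuclei. Of the granins, which are cargo of dense core vesicles, Scg2 had 18.3 in VIP and 8.21 in SST nuclei against 3.66 in excitatory nuclei, and Chgb had 7.44 in excitatory and 4.87 in LAMP5/NDNF nuclei. Dpp4 and Fap, whose peptidases can trim the peptide, had 263 and 250 UMIs in all, and Dpp4 had 0 in SST and PV nuclei.

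For chromatin, the authors' reference regions within 50 kb on either side of the members were taken, 44 of the 323369 regions of the series. The 6 samples held 1801883 to 2256073 reads in regions. Of the 44 regions, 16 overlapped a deposited peak of at least 1 sample, and 4 overlapped a peak in all 6, which were the regions at the 4 start sites. The same shares over all regions are not given, so these counts cannot be read as high or low. The 7 that passed the filter on low counts were tested by edgeR's quasi-likelihood test over all 40338 regions that passed, with Benjamini-Hochberg adjustment. The SE given with a log2 difference was derived from the test, as the difference over the square root of its F statistic. The 37 others had a median of 8 reads over the 6 samples and at most 30. A difference here may be of fewer nuclei with an accessible region or of fewer reads per nucleus, which cannot be told apart in bulk samples. Reads and UMIs set side by side below come from different sets of nuclei. The ATAC-Seq types were defined by Cre drivers in whole, uninjected cortex, and the snRNA-Seq classes by marker gates in injected V1. As a check of the purified types, the region at the Sst start had 33 and 32 reads in SST, 2 and 2 in PV and 4 and 4 in VIP samples, and those at the Vip start had 27 and 40 in VIP and 1 to 7 in the other samples. The region at the Pvalb start had 4 and 7 reads in PV, 0 and 5 in SST and 2 and 2 in VIP, so the PV samples did not stand apart there.

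None of the 7 tested regions passed for SST against PV (edgeR, adjusted p under 0.05), where 8.29% of all tested regions did, 3 had an unadjusted p under 0.05, and DESeq2 called 0. For SST against VIP 2 of 7 passed, both higher in SST, where 36.3% of all tested regions did. For PV against VIP 4 of 7 passed, 3 higher in PV and 1 higher in VIP, where 49.1% of all tested regions did. These shares are near the background. The directions of these calls cannot be weighed. Regions called higher in SST or PV than in VIP passed the filter on low counts without the help of a VIP sample. A region 500 bases before the Npy5r start had its highest reads in VIP samples and did not pass the filter. The median log2 difference over the 7 regions was 0.04 for SST against PV, 0.70 for SST against VIP and -0.29 for PV against VIP, beside -0.01, 0.07 and 0.04 over all regions tested.

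The region over the Npy start (chr6:49821859-49822990, reaching into exon sequence of Npy) had 49 and 34 reads in SST, 13 and 21 in PV and 23 and 31 in VIP samples. Both SST samples were above all PV and VIP samples, in reads and after scaling to library size. After scaling, the PV and VIP samples overlapped. SST exceeded PV by 1.15 on the log2 scale (SE 0.40, adjusted p = 0.083, edgeR quasi-likelihood) and VIP by 0.70 (SE 0.38, adjusted p = 0.16), neither past the threshold. Without SST replicate 2, the SST differences were 1.51 against PV (adjusted p = 0.0042) and 1.00 against VIP (adjusted p = 0.018) and passed, whereas without SST replicate 1 they were 0.80 (adjusted p = 0.19) and 0.28 (adjusted p = 0.63). PV and VIP did not differ past the threshold either (-0.45, SE 0.42, adjusted p = 0.39), and their read counts were close at 13 and 21 against 23 and 31.

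A distal region 44239 bases before the Npy start (chr6:49777959-49778984, outside protein-coding genes, with Npy the nearest coding start) had 19 and 11 reads in PV, 7 and 8 in SST and 2 and 0 in VIP samples. Peaks were called there in both PV samples and in no other. The region passed the filter on low counts only through its PV samples, so it was tested because PV was high. PV exceeded VIP by 3.93 (SE 0.79, adjusted p = 0.00071, edgeR), a ratio of summed reads of 17.2 (exact interval 4.37 to 148.9 for counting error). SST exceeded VIP by 2.81 (SE 0.90, adjusted p = 0.021), a ratio of 7.81 (1.82 to 70.4). This second call was lost without VIP replicate 2 (1.72, adjusted p = 0.24), without the filter (2.63, adjusted p = 0.21) and by DESeq2 (2.90, adjusted p = 0.11), while PV against VIP passed in every alternative run, with an adjusted p of at most 0.031. The size of the PV difference rested on the VIP samples, at 6.99 without VIP replicate 1, which leaves a VIP sample at 0, and 2.82 without VIP replicate 2. SST against PV was -1.12 and did not pass (SE 0.53, adjusted p = 0.20). Reads here were most frequent in PV samples, whereas Npy UMIs were more frequent in SST and VIP nuclei than in PV nuclei. The 300 bases around the strongest peak in it, at chr6:49778272-49778571 on the plus strand, are shown because this region passed in 2 contrasts, and they hold none of the 5 motifs.
Region before Npy: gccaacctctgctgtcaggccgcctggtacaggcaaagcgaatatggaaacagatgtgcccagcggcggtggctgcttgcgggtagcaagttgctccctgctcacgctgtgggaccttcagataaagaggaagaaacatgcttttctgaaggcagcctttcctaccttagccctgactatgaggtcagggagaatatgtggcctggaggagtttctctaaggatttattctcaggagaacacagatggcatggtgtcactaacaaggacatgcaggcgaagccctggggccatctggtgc

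At Npy2r, the region over the start (chr3:82547767-82548767) had 31 and 42 reads in SST, 34 and 30 in PV and 44 and 51 in VIP samples. Replicates of each group were close and VIP was highest, but no contrast passed, with log2 values of -0.33 for SST against VIP (SE 0.31, adjusted p = 0.44) and -0.37 for PV against VIP (SE 0.32, adjusted p = 0.35, edgeR). The ratio of summed reads in PV to VIP was 0.774 (exact interval 0.555 to 1.07), beside Npy2r UMIs of 3.86 per 10000 in VIP nuclei and 0 in PV nuclei. An adjoining region (chr3:82548662-82549262) with no called peak had 17 and 19 reads in PV, 7 and 24 in SST and 6 and 9 in VIP samples. No VIP sample had enough reads there to help the region past the filter on low counts. PV exceeded VIP there by 1.45 (SE 0.54, adjusted p = 0.033, edgeR). Without PV replicate 1 this was 1.52 (adjusted p = 0.066), without PV replicate 2 1.29 (0.12), without VIP replicate 1 1.15 (0.16) and without VIP replicate 2 1.56 (0.088). It did not pass without the filter (1.15, adjusted p = 0.36) or by DESeq2 (1.43, adjusted p = 0.15), and without SST replicate 1 SST exceeded VIP here by 1.61 (adjusted p = 0.013), whereas without SST replicate 2 the value was 0.04 (adjusted p = 0.97).

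A region 55710 bases from the Npy2r start on the side of the gene's end (chr3:82491976-82492773, outside protein-coding genes, with Npy2r as the nearest coding start) had 18 and 11 reads in PV, 4 and 19 in SST and 1 and 0 in VIP samples. Peaks were called in the 2 PV and 2 SST samples and in neither VIP sample. The filter on low counts was likewise passed without the help of a VIP sample. PV exceeded VIP by 4.72 (SE 0.99, adjusted p = 0.0010, edgeR), a ratio of summed reads of 33.3 (5.53 to 1361), and SST exceeded VIP by 4.24 (SE 1.04, adjusted p = 0.0040), a ratio of 23.9 (3.89 to 986.6). The SST samples were far apart, and without SST replicate 2 the SST difference was 2.84 (adjusted p = 0.11), as without the filter (4.07, adjusted p = 0.096). PV against VIP passed in every alternative, with an adjusted p of at most 0.042, but with 1 VIP read in all its size was poorly fixed, at 6.94 without VIP replicate 1, which leaves a VIP sample at 0, and 3.69 without VIP replicate 2. VIP samples had the fewest reads in this region, whereas among the gated classes of injected V1 the VIP nuclei had the most Npy2r UMIs. Its central peak sequence, at chr3:82492210-82492509 on the plus strand, is shown because it had the largest log2 difference of the 7 tested regions, and none of the 5 motifs matched.
Region after Npy2r: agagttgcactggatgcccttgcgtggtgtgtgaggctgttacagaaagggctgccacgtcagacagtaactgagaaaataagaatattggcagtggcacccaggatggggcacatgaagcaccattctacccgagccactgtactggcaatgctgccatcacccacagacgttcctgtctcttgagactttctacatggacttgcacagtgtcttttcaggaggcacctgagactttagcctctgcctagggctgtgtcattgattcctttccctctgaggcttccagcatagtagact
Over the central 300 bases of 40329 tested regions, the share with a match was 1.69% for the cAMP response element, 11.01% for the AP-1 site, 7.84% for the E-box, 33.9% for the GC box and 6.06% for the TATA box.

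**Figure D4:**
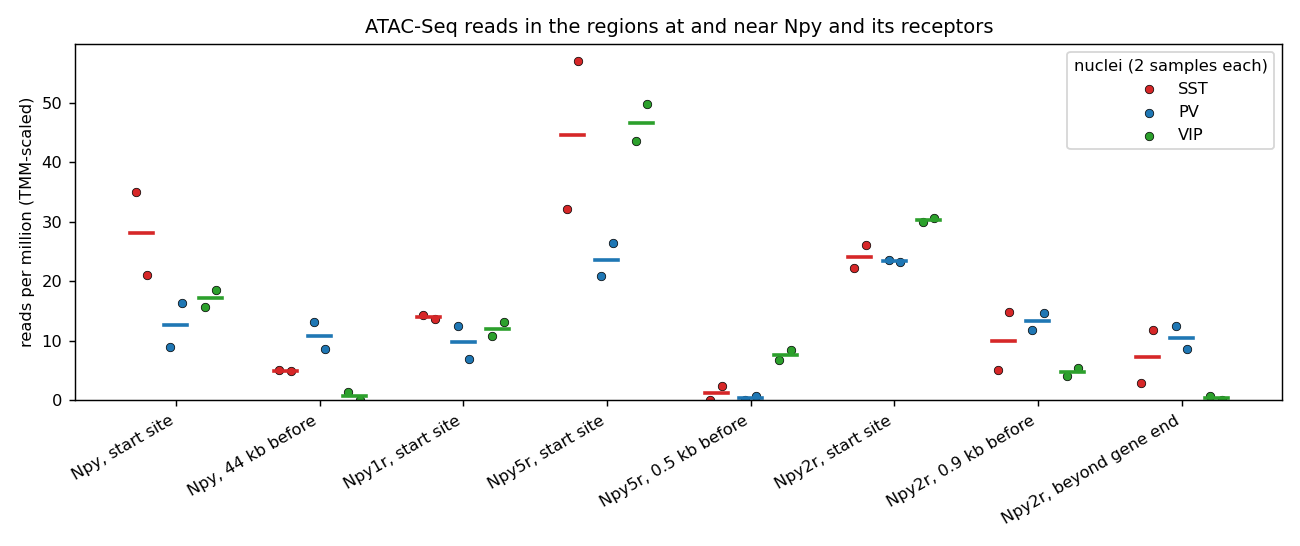
ATAC-Seq reads scaled to library size (CPM, with edgeR's TMM factors) in the 8 regions at or near the members, with 2 samples for each of SST, PV and VIP (points) and their mean (line). The distal regions near Npy and Npy2r are at or near 0 in VIP samples and between 2.86 and 13.2 in PV and SST samples.

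The region over the Npy5r start (chr8:66687593-66688414, reaching into exon sequence) had 30 and 34 reads in PV, 64 and 83 in VIP and 45 and 92 in SST samples. PV was below VIP (log2 -0.99, SE 0.33, adjusted p = 0.019, edgeR), with no overlap. Without PV replicate 1 the difference was -0.92 (adjusted p = 0.12) and without VIP replicate 2 it was -1.001 (adjusted p = 0.079). The call was also lost without the filter (-1.29, adjusted p = 0.059) and by DESeq2 (-1.03, adjusted p = 0.051). SST exceeded PV by 0.93 without passing (SE 0.33, adjusted p = 0.086), and without SST replicate 1 this was 1.32 (adjusted p = 7.5e-05), but without SST replicate 2 it was 0.48 (adjusted p = 0.43). A second region, centred 500 bases before the Npy5r start (chr8:66688328-66688928), had 10 and 14 reads in VIP, 0 and 1 in PV and 0 and 4 in SST samples, and did not pass the filter on low counts. Its VIP samples were above all others. Without the filter, PV against VIP was at log2 -4.37 (adjusted p = 0.044, edgeR) and SST against VIP at -2.66 (adjusted p = 0.15). When a replicate was left out, the region could pass the filter only through its VIP reads, the highest of the 3 types. Calls from those runs are therefore not given as support.

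The region over the Npy1r start (chr8:66696792-66697729) had 20 and 22 reads in SST, 18 and 9 in PV and 16 and 22 in VIP samples. Both SST samples had more reads than either PV sample, and the VIP reads overlapped those of SST and of PV. No contrast passed, with SST against PV at 0.50 (SE 0.43, adjusted p = 0.52), SST against VIP at 0.21 (SE 0.41, adjusted p = 0.72) and PV against VIP at -0.29 (SE 0.43, adjusted p = 0.59, edgeR). In nuclei the VIP level of Npy1r had been 16.6-fold that of SST nuclei.

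**Figure D5:**
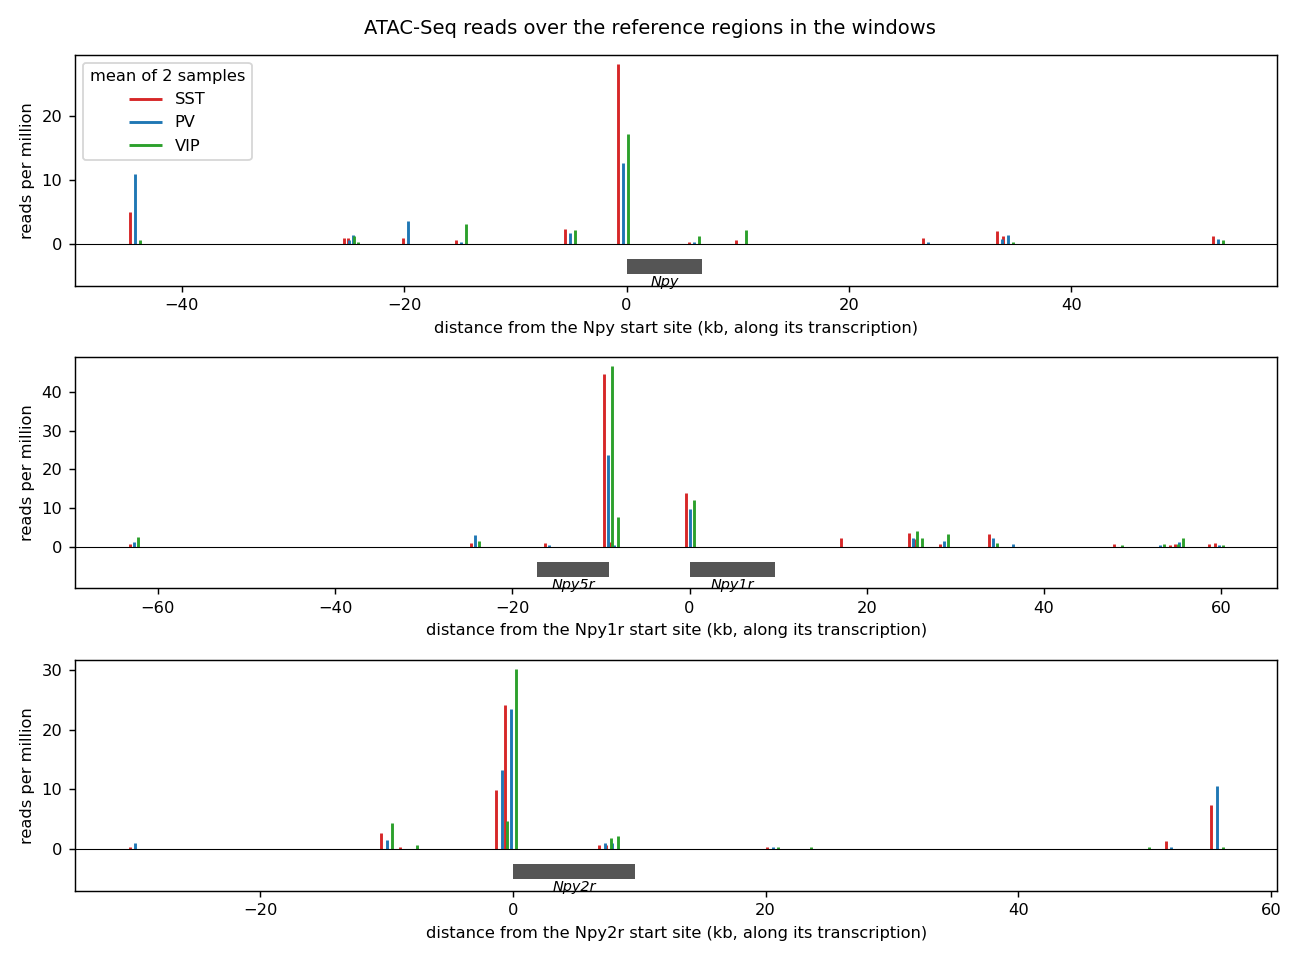
ATAC-Seq reads scaled to library size (CPM) over the reference regions within 50 kb of the members, as the mean of 2 samples for SST, PV and VIP, against distance from the start site in kb along the direction of transcription (lines of the 3 types are set side by side). Grey bars are the genes. The highest signal in each window is at a start site, and the distal regions before Npy and after Npy2r lack a VIP line of visible height beside those of PV and SST.

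Conservation did not set the 44 regions apart. The score used was phyloP, a measure of constraint over mammals that the authors deposited. The median phyloP of the 44 regions was 0.0793, against 0.0642 over all regions. Of the 44 regions, 5 were above 0.5. That share is near the one that the study reports for all its regions at this cutoff. The enhancer candidates of the injected library were far from the members, the nearest lying 3.96 Mb from the Npy2r start.

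For the 14 genes of the system list, 13 had a region within 1000 bases of the start and 9 had 1 that was tested, 11 regions in all. None passed for SST against PV (edgeR, 2 with an unadjusted p under 0.05, 0 by DESeq2), where 8.29% of all tested regions did. For SST against VIP 4 of 11 passed, beside 36.3% of all tested regions, and 1 of 11 by DESeq2. These were higher in SST at Pcsk1 (log2 1.05, adjusted p = 0.021) and Dpp4 (1.47, adjusted p = 0.031) and lower at Chgb (-0.80, adjusted p = 0.0048) and Pam (-0.60, adjusted p = 0.041). For PV against VIP 3 of 11 passed, beside 49.1% of all tested regions, and 3 by DESeq2. These were higher in PV at Pcsk1 (1.76, adjusted p = 0.00042) and lower at Chgb (-1.06, adjusted p = 0.00056) and Pcsk2 (-0.83, adjusted p = 0.014). The medians over the 11 regions were -0.10, 0.08 and 0.27 for the 3 contrasts in the order above.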

How the data were processed

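For snRNA-Seq, the authors ran the inDrops pipeline on GRCm38 extended by a contig for each viral barcode and deposited raw counts of UMIs, 1 table per library. For ATAC-Seq, the authors trimmed reads (Trimmomatic 0.33), aligned them to mm10 (Subread 1.4.6-p3), dropped duplicate reads and kept the peaks found by both MACS2 and HOMER in a sample. The deposited counts per region are raw reads from featureCounts. The deposited peak lists hold a −log10 q-value for each peak, and the authors' table of regions holds a conservation score. The authors' 0/1 peak calls per region and their enrichment values for the 287 screened enhancers were not used, only the positions.

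The 1164 viral columns were removed. Gates, thinning to 300 UMIs and exact intervals were computed in Python 3.11.15 with scipy 1.17.1. ATAC-Seq counts were tested with edgeR 4.0.16 (TMM, filterByExpr, 3 groups, common biological coefficient of variation 0.181), with DESeq2 1.42.0 as an alternative. Gene positions came from GENCODE and sequences from RefSeq, both on GRCm38. The edgeR fit, the class levels and the thinning were tested on simulated data. Of the marker lists, 1 gene of the layer 6 list was not found in the tables used here. The named genes were the 4 members, the 14 listed genes, the 5 genes most like each member, and regions at a start or past the threshold. Of the genes most like Npy5r, 1 is not reported here. The members, lists and gates were chosen with earlier results of these data known. Pairs of classes compared in the text were chosen after their values were seen. Same-numbered ATAC-Seq samples did not deviate together (r of 0.0233, 0.0297 and -0.0366).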

Additional observations from a re-analysis of the deposited data

Results flagged for a closer look

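In 5 of 13 levels checked, 1 library stood far from the other 9, by Dixon's gap over the range of 10 libraries, a rule that chance alone meets in about 1 of 20 groups. Npy in LAMP5/NDNF nuclei was lowest in library 2-3, at 50.43 UMIs per 10000 against 90.62 in the next, on 23 nuclei. Npy in PV nuclei was highest in library 1-2, at 8.046 against 4.103 in the next, on 34 nuclei. Library 1-2 was also highest for Npy in excitatory nuclei, at 0.2528 against 0.1788. Npy1r in VIP nuclei was highest in library 2-5, at 6.937 against 4.231, on 32 nuclei. Npy1r in astrocytes was highest in library 2-3, at 2.022 against 1.272, on 134 nuclei.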

How the results depend on the processing

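Gated by single marker genes, the Npy level of LAMP5/NDNF nuclei was 65.94 per 10000 in place of 104.7, and with no UMI of another list allowed it was 129.2, while Npy2r in VIP nuclei was 7.748 in place of 3.859. The cause was not tested. Leaving out 1 library at a time gave Npy levels of 100.9 to 109.7 (LAMP5/NDNF), 25.06 to 27.93 (SST), 5.271 to 6.634 (VIP) and 1.721 to 2.43 (PV), Npy1r of 3.203 to 3.655 (VIP), Npy2r of 3.636 to 4.096 (VIP) and Npy5r of 0.9122 to 1.093 (VIP). Regions near the members past the threshold for SST against VIP, 2 in the main test, were 0 without the filter, 1 by DESeq2, 5 of 10 tested within 100 kb, 0 of 5 within 5 kb and 1 to 3 when a replicate was left out, when calls over all regions ran from 8581 of 53382 to 19017 of 53326. For PV against VIP, 4 in the main test, they were 3 without the filter, 2 by DESeq2, 6 of 10 within 100 kb, 2 of 5 within 5 kb and 2 to 5 when a replicate was left out, when calls over all regions ran from 12980 of 53382 to 27615 of 56308. For SST against PV, 0 in the main test, they were 0 to 1 when a replicate was left out, and the 1 was the Npy5r start without SST replicate 1 and the Npy start without SST replicate 2. Over all regions, DESeq2 called 411, 7456 and 11614 for SST against PV, SST against VIP and PV against VIP, and edgeR without the filter 0, 7019 and 10868, of 310118 regions, beside 3344, 14633 and 19824 of 40338. No difference past the threshold changed direction under any alternative run, but 6 that were not past it changed sign, which were SST against PV at the distal Npy2r region (-0.485, up to 0.197), the region 878 bases before Npy2r (-0.378, up to 0.217) and the Npy2r start (0.043, down to -0.049), SST against VIP at the Npy5r start (-0.058, up to 0.272) and the Npy1r start (0.206, down to -0.013), and PV against VIP at the Npy1r start (-0.294, up to 0.048). The replicate numbers do not pair the samples, and a replicate block gave 0, 2 and 4 regions near the members and 2557, 13993 and 19159 over all regions. Depth limits the low classes, since 3 counts are 0.0562 per 10000 in PV nuclei and 0.411 in near-projecting nuclei, and 37 of 44 regions were too low to test.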
